A study of Drosophila melanogaster with 4 samples.

Results

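The superoxide and peroxide removing enzymes were examined in the fat body, which in the larva stores fat and glycogen and releases most proteins of the blood. The list held 10 genes, namely Sod2, Sod3, Cat, Prx2, Prx3, Prx4, Prx5, PHGPx, Trx2 and Trxr2. A gene was taken where a row of the table carried its symbol alone in the platform's probe-to-gene table. That gave 6 genes, and PHGPx was added through its Entrez Gene identifier, under which both the platform table and RefSeq use the symbol Gtpx. The 7 genes with a row stood among 13402 genes tested. Prx2, Prx4 and Prx5 had no row of their own and were not analysed here, nor was Sod1, the cytosolic superoxide dismutase gene.

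The tested larvae had eaten a semi-purified diet with palm fruit juice (PFJ) mixed in, and the control larvae had eaten that diet alone. All were Drosophila melanogaster of strain w1118, a white-eyed laboratory line, and had fed for 5 days starting as eggs. Per the labels, 4 ml of PFJ brought the phenolic content, expressed as gallic acid equivalents, to 19000 mg for each kg of diet. The labels also give 0.86 mg for each kcal, and these figures were not reconciled here. Each group had 2 arrays, and each array carried RNA pooled from 10 larvae, so the spread between larvae is averaged within a pool and a p-value measures the spread between pools. Larval sex was not given in the labels.

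Superoxide is a by-product of respiration and of oxidase enzymes. Superoxide dismutases turn it into hydrogen peroxide, which is then removed by catalase in peroxisomes and by peroxiredoxins and glutathione peroxidase homologs elsewhere. Peroxiredoxins are reduced again by thioredoxin, and thioredoxin by thioredoxin reductase at the cost of NADPH. Flies lack glutathione reductase, so in them the thioredoxin system also keeps glutathione reduced.

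Values are RMA log2 intensities, in which 1 unit is a 2-fold difference. All differences are PFJ minus control, and each gene is compared with itself across arrays, since the intensities of different probes have no common scale. The arrays of a group were not set apart from those of the other. Pearson's r across genes, which are not independent replicates, was 0.961 between the PFJ arrays and 0.910 between the control arrays, and arrays of different groups lay between 0.920 and 0.968. Of the labelled tissue, all 8 measured fat body markers were above the median gene level. Among them, the storage protein gene Lsp2 was at 12.22 and 12.24 in the PFJ arrays and 12.27 and 12.32 in the control arrays. Lsp2 was the 1 marker of the 8 with both PFJ arrays below both controls, whereas 6 of the 8 had them above. Testis genes were uneven. The mean over 22 testis markers was 5.03 and 4.16 in PFJ replicates 1 and 2, against 5.39 and 2.68 in control replicates 1 and 2. Midgut markers averaged 5.54 and 6.51 in the PFJ arrays and 5.07 and 6.07 in the control arrays, over 27 genes. Of other tissues, 9 of 12 salivary gland markers and 7 of 8 muscle markers were also above the median gene level, as were 6701 of all 13402 genes. Probes have no common scale and no detection call was made, so this measure does not show which tissues were present. The salivary gland markers averaged 7.65 and 7.41 in the PFJ arrays and 7.20 and 7.69 in the control arrays.

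**Figure D1:**
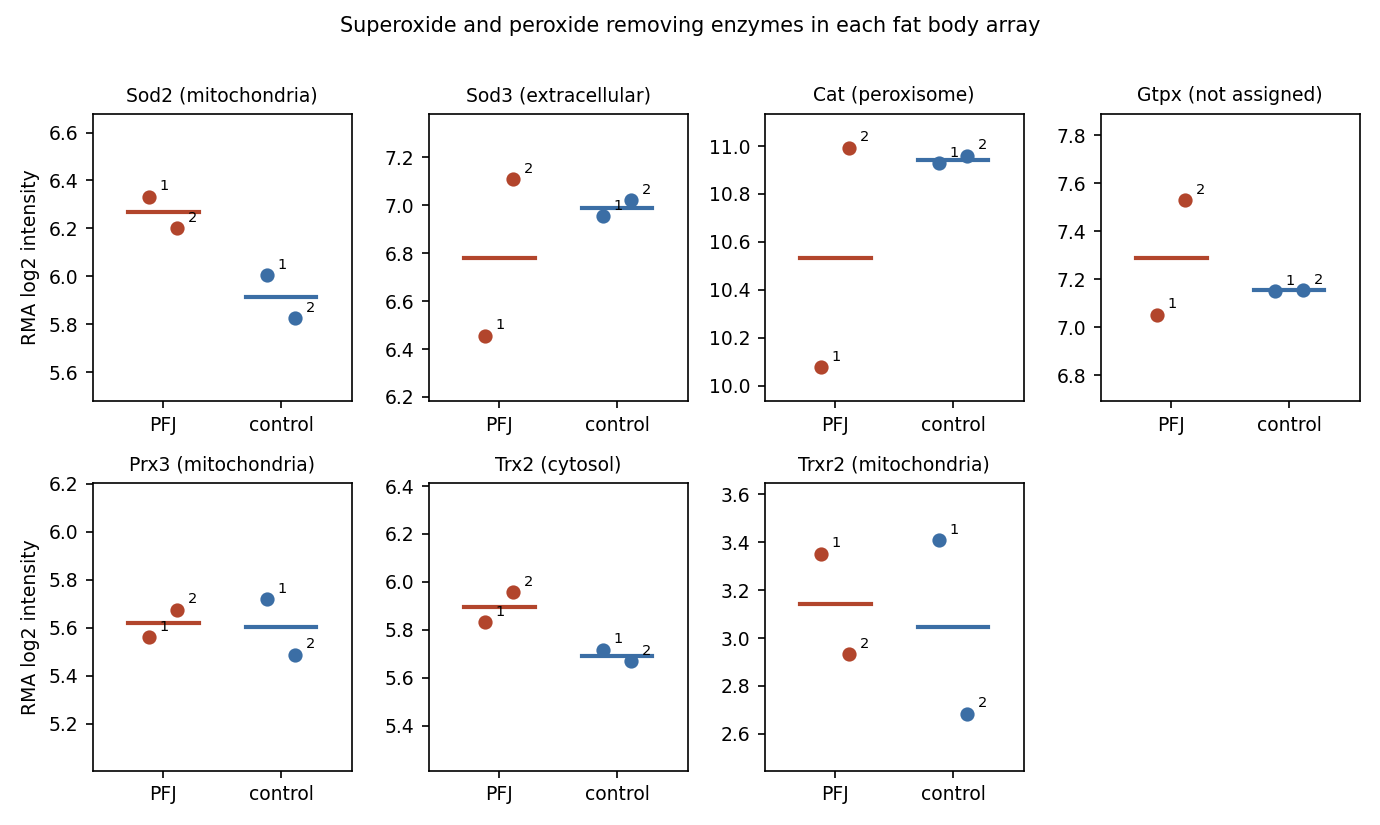
RMA log2 intensity (vertical axis, scaled per gene) of the 7 enzyme genes in each array, with PFJ left and control right. Points are arrays numbered by replicate and bars are group means. Both PFJ points lie above both control points for Sod2 and Trx2, and the low point of Cat is PFJ replicate 1 at 10.08.

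No enzyme gene passed the test. Limma, fitted over all genes, gave 0 of the 7 at a Benjamini-Hochberg adjusted p under 0.05, and the share of all genes called was 0%. At an unadjusted p under 0.05 it also gave 0 of the 7, where 2.78% of all genes fell under that value. Every one of the 7 had an adjusted p of 1. Their differences ran from -0.41 for Cat to 0.35 for Sod2, with a median of 0.10, beside a median of 0.01 over all genes. With 2 arrays against 2, the smallest two-sided p of an exact permutation test is 0.333.

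The PFJ and control arrays were fully separated for 2 of the 7 genes, Sod2 and Trx2, both higher with PFJ. Over all genes the arrays were separated in 28.6%, with 15.5% higher and 13.1% lower, so the share among the enzymes was at the background. In the remaining 5 genes the groups overlapped.

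Among the dismutases, Sod2 encodes the manganese enzyme of the mitochondrial matrix (Entrez Gene 36878). It read 6.33 and 6.20 in the PFJ arrays, against 6.01 and 5.82 in the control arrays. Both PFJ arrays were above both controls, and the nearest arrays of the 2 groups were slightly farther apart than the arrays within either. The means were 6.27 ± 0.09 with PFJ and 5.92 ± 0.13 in controls (SD, n = 2 each), a log2 difference of 0.35 (SE 0.17) in the limma fit. The 95% interval ran from -0.13 to 0.84, which as a fold is 0.912 to 1.79 around 1.28. The unadjusted limma p was 0.114, the smallest of the 7. Leaving out 1 array at a time gave differences between 0.26 and 0.44.

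Sod3 encodes the extracellular copper and zinc dismutase (Entrez Gene 36232). It read 6.46 and 7.11 in PFJ replicates 1 and 2, against 6.95 and 7.02 in the control arrays. PFJ replicate 1 was the low array and PFJ replicate 2 the high one, so the controls lay between them. The difference was -0.21 (SE 0.28, 95% interval -0.98 to 0.57). Without PFJ replicate 1 it was 0.12.

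Of the enzymes that destroy peroxide, Cat, the peroxisomal catalase gene (Entrez Gene 40048), had the lowest difference of the 7. It read 10.08 and 10.99 in PFJ replicates 1 and 2, against 10.93 and 10.96 in the control arrays. PFJ replicate 1 alone was low, and the other 3 arrays lay within 0.065 of each other. The means were 10.53 ± 0.65 with PFJ and 10.94 ± 0.02 in controls (SD, n = 2 each), a difference of -0.41 (SE 0.36, 95% interval -1.41 to 0.59), or 0.753-fold. Without PFJ replicate 1 the difference was 0.049. Without PFJ replicate 2 it was -0.87, at an unadjusted limma p of 0.0291 and an adjusted p of 0.954.

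The gap of 0.92 between the PFJ arrays in Cat was matched or exceeded in 7.38% of all genes, whereas the gap of 0.03 between the control arrays was matched or exceeded in 92.6%. PFJ replicate 1 was 0.85 below the next lowest array in Cat. At least as great a drop in that array was found in 193 genes, or 1.44% of all genes. For Sod3 the drop was 0.50, which 4.67% of genes matched or exceeded.

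The genes with the nearest profile to Cat were sought among the other enzyme genes and 73 genes of the pathway lists. Nearness was the Euclidean distance between log2 values over the 4 arrays, each gene centred on its own mean. Cat lay nearest to Sod3 among the enzymes, at a distance of 0.28. The nearest list genes were Pdi, a protein disulfide isomerase of the endoplasmic reticulum, at 0.11 and Pex14, a peroxisomal import docking gene, at 0.24. For Sod3 they were Pex16, a peroxisomal membrane assembly gene, at 0.11 and Keap1, the inhibitor of the Nrf2 homolog cnc, at 0.19. Pdi read 8.35 and 9.36 in PFJ replicates 1 and 2, against 9.14 and 9.27 in the control arrays. All of these genes were lowest in PFJ replicate 1, and they were picked for that likeness.

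**Figure D2:**
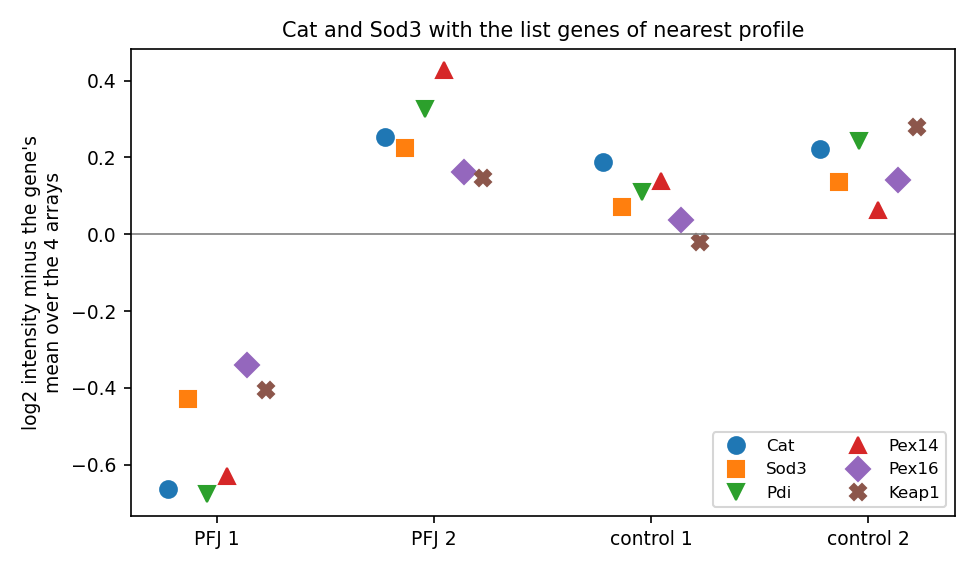
Log2 intensity minus the gene's own mean over the 4 arrays (vertical axis) for Cat, Sod3 and the list genes nearest to each, by array. Markers stand for genes. In PFJ replicate 1 Cat was at -0.66 and Sod3 at -0.43, and both were above 0 in the other 3 arrays.

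Prx3 encodes a mitochondrial peroxiredoxin (Entrez Gene 42109). It read 5.56 and 5.68 in the PFJ arrays, against 5.72 and 5.49 in the control arrays. The control arrays lay on either side of both PFJ arrays. The difference was 0.02 (SE 0.18), with a 95% interval from -0.49 to 0.52, or 0.714 to 1.43 as a fold. Its sign turned without control replicate 2 (-0.10), without PFJ replicate 2 (-0.04) and when each array was centred on its median (-0.032).

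Gtpx, the PHGPx of the list (Entrez Gene 38413), encodes a glutathione peroxidase homolog that in flies uses thioredoxin as its reductant. It read 7.05 and 7.53 in PFJ replicates 1 and 2, against 7.15 and 7.16 in the control arrays. The PFJ arrays lay on either side of the controls. The difference was 0.14 (SE 0.23, 95% interval -0.50 to 0.77), and without PFJ replicate 2 it was -0.10. Its control arrays were only 0.01 apart, a gap that 98.4% of genes matched or exceeded.

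The last pair of genes supplies the electrons. Trx2, the main cytosolic thioredoxin gene (Entrez Gene 34281), read 5.83 and 5.96 in the PFJ arrays, against 5.72 and 5.67 in the control arrays. Both PFJ arrays were above both controls, by a margin slightly smaller than the gap between the PFJ arrays. The means were 5.89 ± 0.09 with PFJ and 5.69 ± 0.03 in controls (SD, n = 2 each), a difference of 0.20 (SE 0.16, 95% interval -0.25 to 0.65). The unadjusted limma p was 0.286. After each array was centred on its median, Sod2 was the gene of the 7 whose groups stayed apart and Trx2 overlapped.

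The median differences of several tissue marker lists were above 0, as were the differences of Sod2 and Trx2. By the mean level of a list, only the fat body markers had arrays separated by group. For midgut, hemocyte, muscle, testis and salivary gland markers the mean levels of the groups overlapped. Of 8 fat body markers, 6 had both PFJ arrays above both controls and 1 had them below, with a median difference of 0.44, and their mean level was 9.44 and 9.65 in the PFJ arrays, against 9.17 and 8.80 in the control arrays. Among 13 hemocyte markers 6 were separated upward and 0 downward, at mean levels of 4.34 and 4.57 in PFJ arrays and 4.06 and 4.36 in control arrays. Their median difference was 0.32, with 9 positive and 4 negative differences, from -0.67 for NimC1 to 1.26 for PPO1. The phagocytic receptor genes NimC1, crq and eater differed by -0.67, -0.67 and 0.32. These 4 genes were named after their values were seen. Of 27 midgut markers 6 were separated upward and 1 downward, with a median of 0.41, and of 8 muscle markers 1 was separated, upward, with a median of 0.50. Muscle markers averaged 6.75 and 7.36 in the PFJ arrays and 7.01 and 6.17 in the control arrays. Testis markers had a median of 0.23, with 0 of 22 separated in either direction. Salivary gland markers had a median of 0.0003, with 6 positive and 6 negative differences, and of 12 genes 2 were separated upward and 1 downward. Over all genes 15.5% were separated upward and 13.1% downward. At an unadjusted limma p under 0.05, 4 hemocyte, 2 fat body, 1 midgut and 0 muscle markers were higher and 0 lower. The shares over all genes were 1.74% higher and 1.04% lower. The part of these shifts in the values of Sod2 and Trx2 was not tested. In RNA from whole organs, a change in the number of cells of a type and a change in RNA per cell cannot be told apart.

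Trxr2 is a thioredoxin reductase gene assigned here to mitochondria (Entrez Gene 40475). It read 3.35 and 2.93 in PFJ replicates 1 and 2, against 3.41 and 2.68 in control replicates 1 and 2. The control arrays were the highest and the lowest of the 4. The difference was 0.10 (SE 0.33, 95% interval -0.83 to 1.02). It was -0.27 without control replicate 2 and -0.11 without PFJ replicate 1. Trxr2 was the one of the 7 rows that both filters on dim genes removed.

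The array order of Trxr2 was control replicate 1, PFJ replicate 1, PFJ replicate 2 and control replicate 2, from high to low. This order held in 15 of 22 testis markers, or 68.2%, and in 9.10% of all genes. Trxr2 was the only one of the 7 enzyme genes to follow it. Whether testis RNA had a part in the Trxr2 values was not tested.

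**Figure D3:**
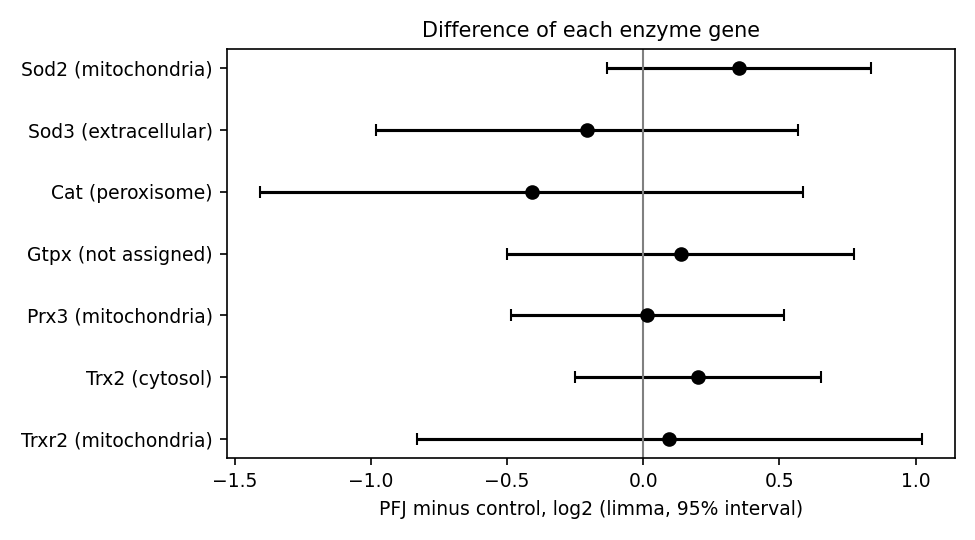
Difference between PFJ and control in log2 units (horizontal axis) for the 7 enzyme genes, with the compartment of each enzyme in brackets. Points are limma estimates and bars are 95% intervals. Every interval includes 0, and the estimates run from -0.41 for Cat to 0.35 for Sod2.

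By compartment, the 3 measured genes assigned to mitochondria, Sod2, Prx3 and Trxr2, had differences of 0.35, 0.02 and 0.10. The cytosolic Trx2 had 0.20, the peroxisomal Cat -0.41 and the extracellular Sod3 -0.21. Prx5, assigned to mitochondria and other compartments, had no row of its own. Gtpx was assigned to no compartment. The mean of the mitochondrial genes, each centred on its own mean, was 0.15 and 0.00 in PFJ replicates 1 and 2, against 0.11 and -0.27 in control replicates 1 and 2. PFJ replicate 2 thus lay between the controls and PFJ replicate 1 just above them. All 3 genes were lowest in control replicate 2. Sod2 was highest in PFJ replicate 1, while Prx3 and Trxr2 were highest in control replicate 1.

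Differences between members were compared directly over 21 gene pairs, by taking one centred gene minus the other in each array. The widest shift was that of Sod2 minus Cat, which was 0.90 and -0.14 in PFJ replicates 1 and 2, against -0.27 and -0.49 in the control arrays. Its group means differed by 0.76, at a two-sided exact permutation p of 0.333, the smallest this design allows, and 0.737 after Benjamini-Hochberg adjustment over the 21 pairs. Cat minus Trx2 gave -0.70 and 0.09 in the PFJ arrays and 0.26 and 0.35 in the control arrays, with the same exact p. PFJ replicate 1 set the size of both shifts.

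PFJ replicate 2 was the highest array for 4 of the 7 enzyme genes and the lowest for none of them. Control replicate 2 was the lowest for 4 and PFJ replicate 1 for the other 3. Over all genes, 18.9% were highest in PFJ replicate 2, 29.0% lowest in control replicate 2 and 24.9% lowest in PFJ replicate 1.

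Some partner genes, among them Srx and Gclm, differed more between the groups than any of the 7 enzyme genes. Among 13 measured genes that supply or restore reductant, 0 passed the adjusted limma test, while 2 were higher and 0 lower at an unadjusted p under 0.05, against 1.74% and 1.04% of all genes. Their median difference was 0.18. The arrays were separated upward in 4 of the 13 and downward in 1, where all genes gave 15.5% and 13.1%. The list was chosen with earlier results of these data known, so its shares do not test the list.

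Srx encodes sulfiredoxin, which restores peroxiredoxins whose active cysteine has been overoxidised. It read 7.19 and 6.82 in the PFJ arrays, against 5.72 and 5.93 in the control arrays. Both PFJ arrays exceeded both controls, and the distance between the groups was larger than the gap within either. The difference was 1.18 (SE 0.22, 95% interval 0.58 to 1.78), or 2.27-fold, at an unadjusted limma p of 0.00531 and an adjusted p of 1. Leaving out each array in turn kept it between 1.00 and 1.36, and repeated quantile normalisation gave 1.28.

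Gclm, the modifier subunit of glutamate-cysteine ligase, whose product feeds glutathione synthesis, read 6.32 and 6.78 in the PFJ arrays, against 5.96 and 5.80 in the control arrays. The groups were apart, with a gap between the PFJ arrays wider than the distance from the controls. The unadjusted limma p was 0.0444 and the adjusted p was 1. Its difference was 0.67 (SE 0.23), and it was 0.44 without PFJ replicate 2 and 0.90 without PFJ replicate 1. Grx1, a glutaredoxin gene, differed by 0.39 (SE 0.18), with both PFJ arrays above both controls. Gclc, the catalytic partner of Gclm, overlapped between groups at 0.15 (SE 0.42).

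Trxr1, the paralog of Trxr2, was level across arrays. It read 6.44 and 6.47 in the PFJ arrays, against 6.45 and 6.48 in the control arrays, a difference of -0.01 (SE 0.16, 95% interval -0.45 to 0.42). Txl, a thioredoxin-like gene, differed by -0.30 (SE 0.22) with both PFJ arrays below both controls.

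Of the other superoxide and peroxide enzymes, 9 were measured and 0 passed the adjusted limma test. At an unadjusted limma p under 0.05 there were also 0 of the 9, against 2.78% of all genes. Their median difference was 0.08. The arrays were separated in 1 of the 9, the peroxiredoxin gene Prx6c, against 28.6% of all genes. Prx6c differed by 0.37 (SE 0.19) and was dim, at 2.44 and 2.24 in the PFJ arrays and 2.08 and 1.86 in the control arrays. Only 3 of the 9 genes were above the median gene level. Irc, the immune-regulated catalase gene, differed by 0.08 (SE 0.19), and Ccs, the copper chaperone of Sod1, by 0.20 (SE 0.23).

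A second catalase gene, CatB, and a further peroxiredoxin gene, Prx1, spread most widely. CatB read 4.94 and 4.70 in PFJ replicates 1 and 2, against 6.07 and 2.85 in control replicates 1 and 2. Prx1 read 4.55 and 3.81 in the PFJ arrays, against 5.44 and 2.74 in the control arrays. In both genes the controls were the highest and lowest arrays, in the order of most testis markers and of 9.1% of all genes. TrxT, the testis thioredoxin gene, had the same order but is itself among the 22 testis markers. It read 9.05 and 7.97 in the PFJ arrays, against 10.25 and 3.18 in the control arrays. The differences of CatB, Prx1 and TrxT were 0.36 (SE 1.15), 0.09 (SE 1.00) and 1.80 (SE 2.53), and without control replicate 2 they were -1.25, -1.26 and -1.74. The part of testis RNA in the CatB and Prx1 values was not tested.

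**Figure D4:**
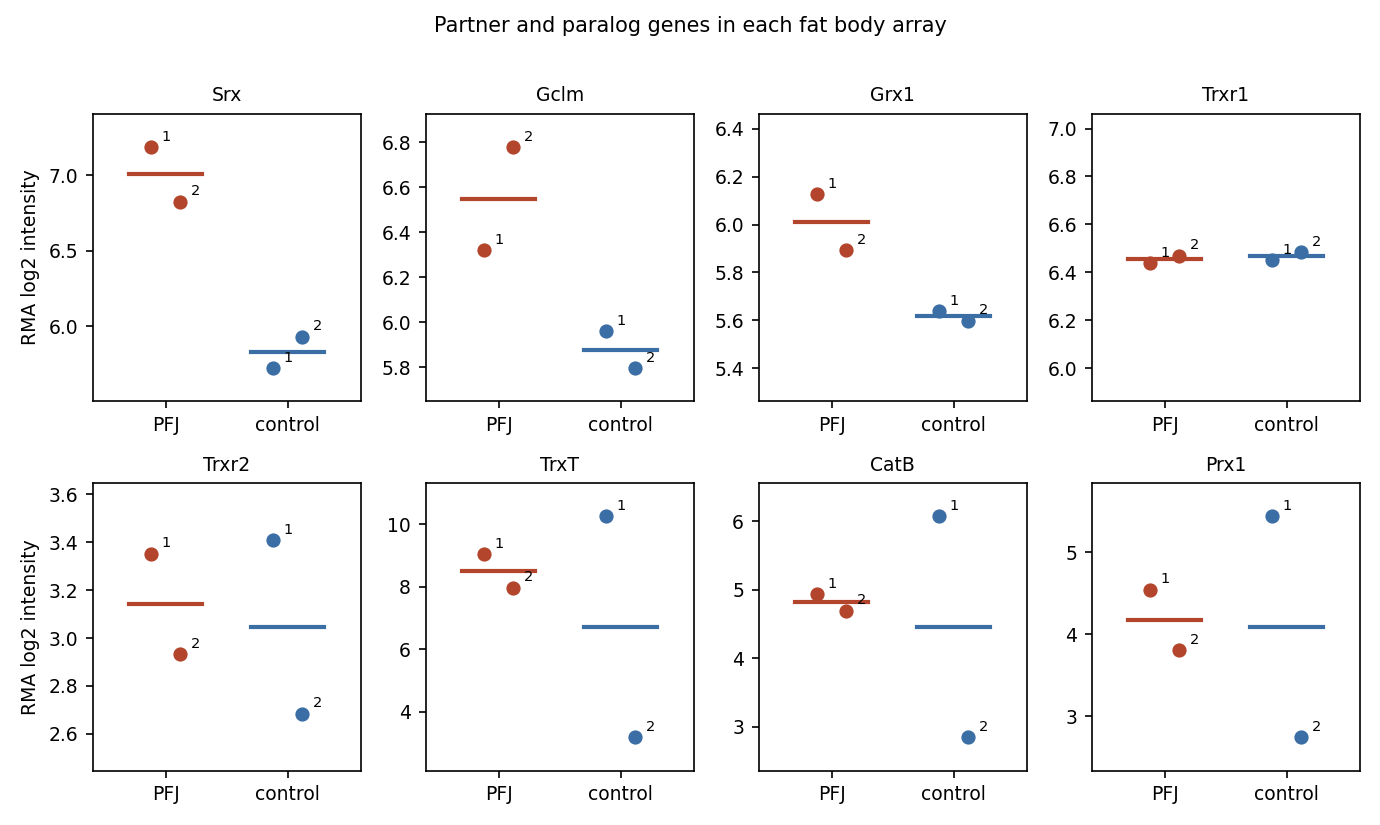
RMA log2 intensity (vertical axis, scaled per gene) of partner genes and paralogs in each array, with PFJ left and control right. Points are arrays numbered by replicate and bars are group means. Both PFJ points lie above both control points for Srx, Gclm and Grx1, and control replicate 2 is the lowest point for Trxr2, TrxT, CatB and Prx1.

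The remaining pathway lists each gave 0 genes past the adjusted limma test and 0 at an unadjusted p under 0.05. Over all genes these shares were 0% and 2.78%. Genes whose products make superoxide or peroxide numbered 13, with a median difference of 0.06. Their arrays were separated upward in 4 and downward in 3, against 15.5% and 13.1% of all genes. The aldehyde oxidase gene AOX3 differed by 0.40 (SE 0.17) and the acyl-CoA oxidase gene Acox57D-d by 0.33 (SE 0.16), with both PFJ arrays above both controls, whereas CG17544 differed by -0.34 (SE 0.17) and the NADPH oxidase gene Nox by -0.31 (SE 0.16), with both PFJ arrays below both controls.

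The 8 regulators had a median of -0.09. Here cnc, the Nrf2 homolog that activates antioxidant genes, read 7.45 and 7.19 in the PFJ arrays, against 7.40 and 7.46 in the control arrays, and overlapped. Keap1 differed by -0.26 (SE 0.27). The transcription factor gene foxo differed by 0.34 (SE 0.24), with the PFJ arrays above the controls. Another regulator gene, dj-1beta, differed by -0.19 (SE 0.16), with the PFJ arrays below the controls. Of the 8 regulators 1 was thus separated upward and 1 downward, where all genes gave 15.5% and 13.1%.

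Genes that build or supply the compartments did not pass either. The 9 peroxisome import genes had a median difference of 0.00, the 14 mitochondrial import genes -0.07 and the 8 genes of folding and disulfide formation in the endoplasmic reticulum -0.21. Of the mitochondrial import genes, the outer membrane channel gene Tom40 had the lowest difference, at -0.93 (SE 0.66). It read 5.11 in PFJ replicate 1 and 6.91 in PFJ replicate 2, against 6.97 and 6.92 in the control arrays, so that PFJ replicate 1 alone was low, as in Cat.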

How the data were processed

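Single-colour Affymetrix arrays measured total RNA of larval fat bodies in 2 PFJ and 2 control pools. The authors deposited log2 intensities from RMA, run in Affymetrix Expression Console (version 1.4.0.38), per the submitters' processing notes; RMA corrects background, equalises the arrays' probe distributions and summarises probes, which hides any change common to most genes. The scale is inferred from a range of 1.36 to 12.73. The build is not given in the sources used here, and coordinates are left out. Depth has no meaning for arrays, and the number of arrays limits precision.

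Of 16322 rows, 13441 had 1 symbol, 555 several and 2326 none in the platform table. For 37 genes with several rows the highest mean was kept. R 4.3.3 and limma 3.58.1 (lmFit, eBayes, two-sided, no covariate, 4.01 degrees of freedom) ran on all 13402 genes, with Benjamini-Hochberg adjustment and a threshold of 0.05, and were tested on simulated data. Scaling, dim genes, rows, variance prior, replicate block and single arrays were varied. All 10 members were to be named, with up to 4 genes of smallest p per pathway list and others by role or likeness. Members and lists were chosen with earlier results of these data known.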

Additional observations from a re-analysis of the deposited data

How the results depend on the processing

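In all 11 other settings 0 of the enzyme genes and 0 genes overall passed limma's adjusted test. Over the same 13402 genes, counts at an unadjusted p under 0.05 ran from 263 (median centring) to 945 (without control replicate 1), against 373 as reported; among the 6701 genes above the median level the count was 192. With the replicate number as a block (replicate block), 547 genes fell under 0.05 unadjusted and 0 after adjustment, and the smallest p among the enzymes was 0.126, for Sod2. The arrays share only a number, and across genes the deviations of same-numbered arrays correlated at 0.337. Of 75 values of single enzyme genes under other settings, 67 kept their direction and 8 turned, 7 of them through 1 array left out. Over leave-one-out fits, the differences ran from -0.53 to 0.12 for Sod3, -0.87 to 0.049 for Cat, -0.10 to 0.13 for Prx3, -0.10 to 0.38 for Gtpx and -0.27 to 0.46 for Trxr2. Prx3 also turned with median centring, at -0.032. Sod2 and Trx2 stayed above 0 in all 11 settings. The count of enzyme genes with separated groups was 2 as reported, 3 with quantile normalisation repeated and 1 with median centring; with 1 array left out it was 4 to 5, as fewer arrays leave less to overlap. Trxr2 was removed by both filters on dim genes. No probe-level detection call was made.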
